A study of Mus musculus with 6 samples.

Results

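The aminoacyl-tRNA synthetases were examined in cultured primary sinusoidal endothelial cells, which form the porous wall of the capillaries in mouse liver. The set was defined by gene symbol and held 35 of the 23337 genes in the count table: 20 genes of the cytosolic enzymes and 15 of the mitochondrial ones, whose symbols end in 2. RNA was sequenced from 3 control libraries (replicates 2, 3 and 4, unstretched) and 3 stretch libraries (replicates 1, 2 and 4, cyclic stretch of 4% at 1 Hz on a Flexcell device). Cells of both groups had been purified from liver with immunomagnetic beads, cultured in endothelial medium with fetal bovine serum, plated on collagen IV and then deprived of serum. The sources used here do not give the strain, age and sex of the mice, the duration of stretch or whether libraries came from separate isolations, so p-values measure only the spread between these libraries. Values of single libraries are given below in the order control 2, 3, 4 and stretch 1, 2, 4.

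Aminoacyl-tRNA synthetases attach each amino acid to its transfer RNA and so supply the ribosome with its substrates. Most amino acids have one enzyme for the cytosol and another, also encoded in the nucleus, for the mitochondrial matrix, while Gars and Kars encode both forms of the glycine and lysine enzymes. Several cytosolic enzymes sit together in the multisynthetase complex, and many cytosolic synthetase genes are known targets of the transcription factor ATF4, which is made when amino acids are short or the endoplasmic reticulum is stressed.

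Total gene counts lay between 48948948 and 68489956 per library. The 8 sinusoidal endothelial markers (Stab2, Lyve1 and others) and the 6 pan-endothelial markers (Pecam1, Cdh5 and others) were all detected, with summed levels of 5595 to 8644 and 6047 to 6882 CPM (counts relative to the library total after TMM scaling). Of the sinusoidal markers 7 of 8 were called lower after stretch, and of the pan-endothelial markers 4 of 6, by the test described below. By that test 21.4% of all genes tested were called higher and 22.6% lower. Hepatocyte markers summed to 39.8 to 84.3 CPM without stretch and to 579, 115 and 117 CPM in the stretch libraries, and 9 of 10 were called higher. These calls were unstable: leaving out control replicate 2, 3 or 4 left 0, 1 or 4 of them, leaving out stretch replicate 1 left 4, and limma-voom or robust dispersion left 1. Macrophage markers summed to 78.5 to 93.2 CPM without and 111 to 149 CPM with stretch, and 8 of the 9 tested rose. Most of the sum was Cd68 (63.0 to 71.6 CPM without and 67.8 to 92.2 CPM with stretch), whose groups overlapped and which was not called. Among the genes that rose, Lyz2 was highest (means of 15.5 CPM without and 33.5 CPM with stretch), and the others had group means of at most 3.625 CPM. Stellate and fibroblast markers summed to 18.03 to 29.7 CPM with 0 of 6 called, cholangiocyte markers to 61.1 to 112 CPM with 2 of 4 higher, and lymphocyte markers to at most 0.53 CPM, with no count for Cd3g and Nkg7. In bulk RNA, fewer cells of a type and less RNA per cell cannot be told apart.

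Most cytosolic synthetase genes were modestly higher after stretch. All 20 were tested, with the quasi-likelihood method of edgeR, and a gene was called where its p, adjusted by Benjamini-Hochberg over all genes, was under 0.05. Of the 20, 18 were called higher, 1 lower and 1 was not called. Over all 14222 genes tested, 44% were called, 21.4% as higher and 22.6% as lower. The median log2 fold change of the 20 genes was 0.32 (1.24-fold), against -0.01 over all genes tested. In 18 of them every stretch library lay above every control library, a pattern that 26.7% of all genes tested showed. Summed over the class, the level was 2664, 2694 and 2544 CPM in the unstretched cells and 3291, 3319 and 3406 CPM in the stretched ones. The 3 stretch libraries lay close together and all above the controls. The cytosolic counts therefore took 0.254% to 0.269% of the scaled library in control and 0.329% to 0.341% in stretch cells.

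Rars, which charges arginine tRNA (chromosome 11, 35808381 to 35834528), had the largest change in its class. It was at 403.7, 404.8 and 410.3 CPM in the control libraries and at 581.8, 565.5 and 599.5 CPM in those of stretched cells. Its log2 fold change was 0.52 ± 0.04 (SE), or 1.43-fold, with an adjusted p of 8.93e-05 in edgeR. The groups were far apart relative to their spread, since the highest control and the lowest stretch library differed by much more than any pair within a group. Nars, the asparagine enzyme (chromosome 18, 64499647 to 64516557), rose 1.36-fold, from 245.3, 240.0 and 229.3 CPM to 326.5, 314.4 and 333.7 CPM in the same order. Its log2 fold change was 0.45 ± 0.05 (SE), and its control and stretch ranges were likewise apart.

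The genes nearest to Rars in the order of change were Farsb, Gars, Nars and Sars, with log2 fold changes of 0.46, 0.45, 0.45 and 0.45, each with an SE of 0.05. Neighbours in this order did not differ beyond their SE. Farsb and Farsa (0.38 ± 0.05) encode the beta and alpha subunits of the same phenylalanine enzyme. They changed by similar amounts, Farsb from 45.3 ± 2.11 CPM without to 62.3 ± 0.70 CPM with stretch and Farsa from 46.9 ± 1.18 CPM to 61.1 ± 3.56 CPM (means with SD, n = 3 libraries each). Gars and Sars charge glycine and serine. Yars (tyrosine) followed with 0.42 ± 0.06, and Iars (isoleucine) and Tars (threonine) with 0.41 ± 0.05 each. Iars was at 178.5, 178.1 and 178.9 CPM in the 3 stretch libraries and between 125.7 and 142.6 CPM in the controls. These 8 genes and Rars were the 9 cytosolic genes that also passed against a minimum change of 1.2-fold (glmTreat in edgeR), which 8.51% of all genes tested passed as higher and 9.33% as lower. Qars, described below, passed it as lower.

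The remaining increases were smaller. Eprs, whose single protein carries both the glutamate and the proline activity, had a log2 fold change of 0.34 ± 0.06, Hars (histidine) 0.29 ± 0.05, Vars (valine) 0.26 ± 0.06, Lars (leucine) 0.25 ± 0.05 and Kars (lysine) 0.23 ± 0.05. Aars (alanine) had 0.19 ± 0.05, Mars (methionine) 0.18 ± 0.06, Wars (tryptophan), a gene also known as interferon-inducible, 0.16 ± 0.05 and Dars (aspartate) 0.12 ± 0.04. These last 4 calls were weak. Dars was at 138.1 to 140.8 CPM without and 148.6 to 152.8 CPM with stretch, with an adjusted p of 0.0419 in edgeR, and it lost its call whichever library was left out. Mars had overlapping groups, since control replicate 3 at 94.6 CPM lay above stretch replicate 1 at 93.5 CPM. Without control replicate 4 the edgeR adjusted p was 0.0644 for Aars, 0.128 for Mars and 0.108 for Wars, and without stretch replicate 4 it was 0.0643, 0.132 and 0.0885. Mars and Wars also lost their calls without control replicate 2 (edgeR adjusted p = 0.161 and 0.0941) and without stretch replicate 2 (0.113 and 0.0756). The other 14 increases passed in each of the 6 fits that left out 1 library. Cars (cysteine) had a log2 fold change of 0.17 ± 0.06 with an edgeR adjusted p of 0.0538, and passed without stretch replicate 1 (0.0267), the library with the highest hepatocyte marker level. Without that library 18 cytosolic genes were called higher. The part of the hepatocyte and macrophage RNA in the remaining libraries was not tested. With library sizes alone as scaling, 13 cytosolic genes were called higher and 1 lower, where 14.7% of all genes were called higher and 30.2% lower.

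Qars, which charges glutamine tRNA (chromosome 9, 108508005 to 108515941), was the single cytosolic gene that fell. It was at 65.8, 60.7 and 62.5 CPM in the unstretched cells and at 48.5, 48.2 and 48.2 CPM in the stretched cells. The log2 fold change was -0.38 ± 0.05 (SE), or 1.30-fold lower, with an adjusted p of 0.000369 in edgeR, and lay between -0.41 and -0.35 over the 6 fits that left out 1 library. Its stretch libraries were nearly equal, and all lay below the lowest control. Glutamine has no second synthetase among the mitochondrial enzymes, because mammalian mitochondria make glutaminyl-tRNA by amidating glutamyl-tRNA.

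**Figure D1:**
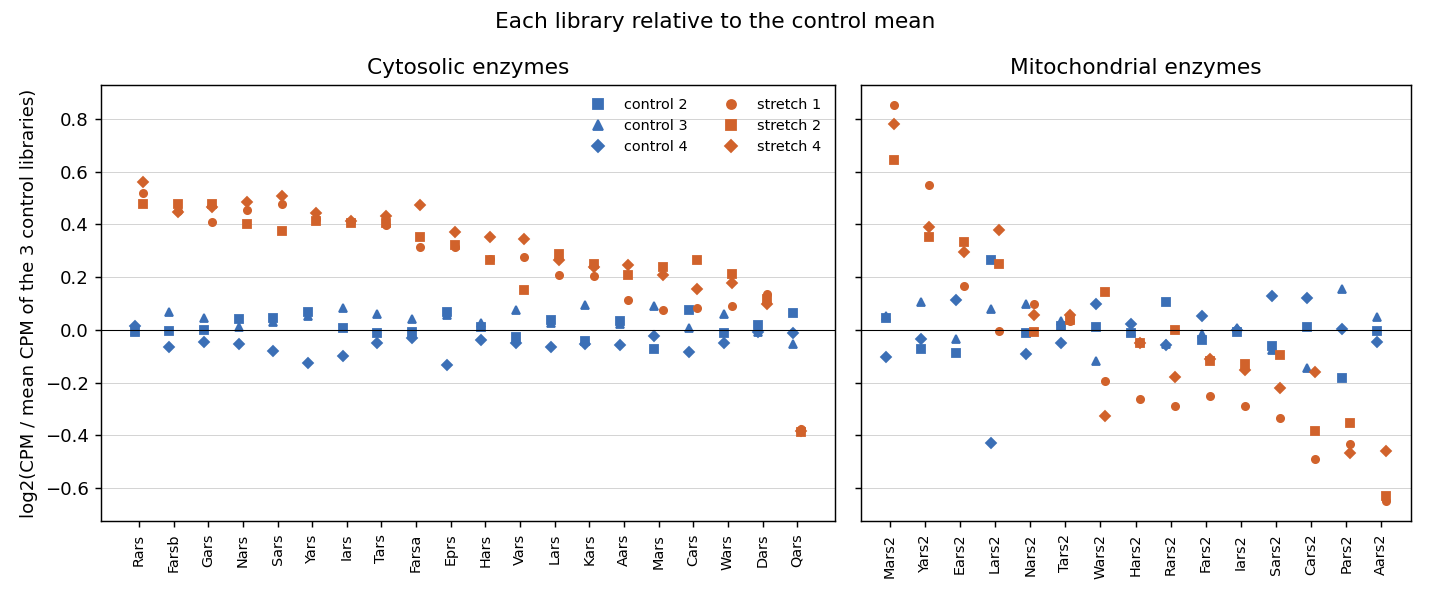
Each point is 1 library: log2 of its CPM over the mean CPM of the 3 control libraries (vertical axis), for the 20 cytosolic genes (left) and the 15 mitochondrial genes (right), ordered by log2 fold change. Blue marks control and orange marks stretch libraries, with a symbol for each replicate number. Stretch libraries lie above all controls for 18 cytosolic genes and below them for Qars, while the mitochondrial genes lie on both sides of the line.

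Promoter windows were searched for the letters of the core of the composite element bound by C/EBP and ATF factors, including ATF4. RefSeq promoter windows (GRCm38.p6, 250 bases before to 50 after the start) were found for 26 of the 35 genes, 13 in each class, Mars under its current symbol Mars1. Not matched were Cars, Hars, Lars, Nars, Rars, Vars, Wars, Hars2 and Pars2. The letters TGATGNAA, searched on both strands, were in windows of 5 of the 13 cytosolic genes (38.5%) and of 0 of the 13 mitochondrial genes. They were in 3.97% of the 32851 windows of the table, a share per window and not per gene. Aars2 had 2 windows. The 5 windows with a match are shown, with the matches in capitals, 5′ to 3′ on the gene's strand. The Aars window is given whole, since it holds 2 matches, and for the others the match is given with up to 36 bases on either side.
Aars, chr8:111033592-111033891, plus strand: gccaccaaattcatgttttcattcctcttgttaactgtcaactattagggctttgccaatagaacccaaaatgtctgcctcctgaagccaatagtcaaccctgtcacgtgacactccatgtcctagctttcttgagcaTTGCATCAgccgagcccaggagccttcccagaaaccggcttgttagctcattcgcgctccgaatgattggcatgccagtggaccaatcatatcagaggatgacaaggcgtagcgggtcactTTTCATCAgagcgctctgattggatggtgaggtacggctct
Gars, chr6:55037935-55038014, plus strand: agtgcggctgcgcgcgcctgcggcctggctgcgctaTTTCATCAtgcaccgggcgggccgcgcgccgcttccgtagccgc
Iars, chr13:49682101-49682179, plus strand: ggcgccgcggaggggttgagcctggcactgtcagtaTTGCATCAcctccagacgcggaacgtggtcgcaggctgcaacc
Tars, chr15:11399630-11399709, minus strand: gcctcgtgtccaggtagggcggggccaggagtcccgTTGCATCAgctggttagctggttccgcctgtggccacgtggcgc
Yars, chr4:129189870-129189949, plus strand: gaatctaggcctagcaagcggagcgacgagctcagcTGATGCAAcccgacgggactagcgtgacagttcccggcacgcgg
In Aars the matches began 112 bases before and 9 bases after the start, in Gars 30 bases and in Tars 15 bases before it, and in Iars 7 bases and in Yars 3 bases after it. The windows of Aars, Gars, Iars and Tars hold the letters in reverse orientation (TTGCATCA, or TTTCATCA in Gars and at the second match of Aars), and that of Yars in forward orientation (TGATGCAA). These genes had log2 fold changes of 0.19, 0.45, 0.41, 0.41 and 0.42. The 8 cytosolic genes whose windows lacked these letters ranged from -0.38 (Qars) through 0.12 (Dars), 0.18 (Mars), 0.23 (Kars), 0.34 (Eprs), 0.38 (Farsa) and 0.45 (Sars) to 0.46 (Farsb). The ranges of the genes with and without the letters overlapped. A palindromic E-box, CACGTG, searched after the data were seen, was in the windows of Aars, Farsb, Iars and Tars, in that of mitochondrial Ears2, and in 7.15% of all windows. A match is a description of the window and not a binding site, and binding was not measured here.

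Mitochondrial synthetase genes went in both directions. Of the 15, all tested, 2 rose, 3 fell and 10 did not pass, and their median log2 fold change was -0.12. Their SE ranged from 0.05 to 0.17, against 0.04 to 0.06 for the cytosolic genes. Dars passed at 0.12 ± 0.04, while Ears2 at 0.27 ± 0.10 and Cars2 at -0.34 ± 0.12 did not. The numbers called are therefore not directly comparable between the classes. The share called higher (2 of 15) was not above the 21.4% of all genes, and the share called lower (3 of 15) was close to the 22.6% of all genes. Groups were apart with stretch higher for 3 genes and with stretch lower for 7, where 29.2% of all genes tested were apart with stretch lower. Leaving out stretch replicate 1 left 1 gene called lower and moved the median to -0.06.

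Mars2, the mitochondrial methionine enzyme (chromosome 1, 55237177 to 55240058), rose the most of all 35 genes. Without stretch it was at 9.31, 9.35 and 8.39 CPM and with stretch at 16.3, 14.1 and 15.5 CPM. Its log2 fold change was 0.76 ± 0.09 (SE), or 1.70-fold, with an adjusted p of 0.000273 in edgeR. Every stretch library was well above the controls. Yars2, the mitochondrial tyrosine enzyme (chromosome 16, 16302965 to 16309640), rose 1.35-fold, from 16.2, 18.4 and 16.7 CPM to 25.0, 21.8 and 22.4 CPM (log2 fold change 0.43 ± 0.08). Stretch replicate 1 was the highest library for both genes, and without it the log2 fold changes were 0.72 and 0.38, and both still passed.

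Aars2, the mitochondrial alanine enzyme (chromosome 17, 45506841 to 45520843), fell 1.49-fold, the largest decrease in the set. Without stretch it was at 14.8, 15.4 and 14.4 CPM and with stretch at 9.47, 9.59 and 10.8 CPM, a difference of -0.58 ± 0.08 (SE) on the log2 scale with an adjusted p of 0.000722 in edgeR. The groups did not overlap, and the call held in each fit that left out 1 library. Pars2, the mitochondrial proline enzyme (chromosome 4, 106651069 to 106655282), was at 4.89, 6.19 and 5.57 CPM without and 4.11, 4.35 and 4.02 CPM with stretch, a difference of -0.42 ± 0.13 (SE) on the log2 scale with an adjusted p of 0.0304 in edgeR. Its call was lost in 5 of the 6 fits that left out 1 library, all but the one without control replicate 2, with edgeR adjusted p up to 0.105. Iars2, the mitochondrial isoleucine enzyme (chromosome 1, 185286662 to 185329401), was at 105.7, 107.0 and 106.4 CPM without and 87.1, 97.2 and 95.8 CPM with stretch. Stretch replicate 1 was the lowest, and the log2 fold change of -0.19 ± 0.05 became -0.13 without it (edgeR adjusted p = 0.0598). The call of Iars2 was also lost without control replicate 2 or 3 (edgeR adjusted p = 0.0512 and 0.0517).

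Of the 10 mitochondrial genes that did not pass, Cars2 (cysteine) was nearest to the threshold, with 8.48 ± 0.77 CPM without and 6.71 ± 0.80 CPM with stretch (means with SD, n = 3 libraries each). Its log2 fold change was -0.34 ± 0.12 (SE), with an adjusted p of 0.0507 in edgeR. It passed without control replicate 3 and without stretch replicate 4 (edgeR adjusted p = 0.0463 and 0.0308). Ears2 (glutamate) had 0.27 ± 0.10. The log2 fold changes of Sars2, Fars2, Rars2, Hars2 and Wars2 lay between -0.21 and -0.11, and those of Tars2 and Nars2 were 0.04 and 0.05. The sign of Tars2 and Nars2 turned with library sizes alone as scaling (-0.05 and -0.04).

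**Figure D2:**
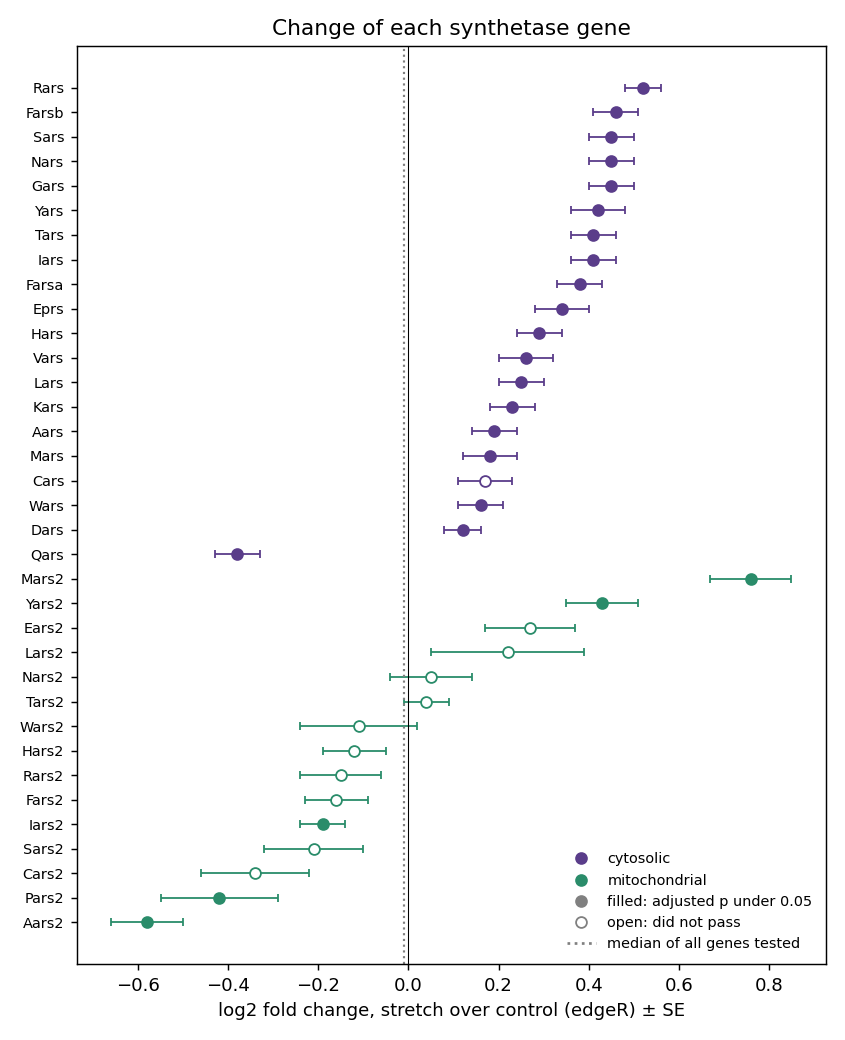
Points are log2 fold changes of stretch over control for each of the 35 genes (horizontal axis) with SE bars from edgeR, cytosolic in purple and mitochondrial in green. Filled points passed an adjusted p of 0.05, and the dotted line is the median of all genes tested (-0.01). The cytosolic genes lie between 0.12 and 0.52 apart from Qars at -0.38, and the mitochondrial genes spread from -0.58 to 0.76.

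Per length of transcript, cytosolic enzymes were the more abundant class. In the authors' deposited RPKM values (reads scaled to transcript length and library total), averaged over the 6 libraries, the cytosolic genes ranged from 17.1 for Vars to 213 for Rars, with a median of 34.3 RPKM. Mitochondrial genes other than Lars2 ranged from 1.47 for Pars2 to 26.2 for Iars2, with a median of 3.84 RPKM. Rars stood above Nars (97.8 RPKM) and Gars (95.0 RPKM), which did not differ beyond the spread of their libraries.

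Lars2, the mitochondrial leucine enzyme (chromosome 9, 123366940 to 123462664), stood apart from its class in level, and in the controls also in spread. Without stretch it was at 322, 289 and 205 RPKM and with stretch at 253, 312 and 330.5 RPKM. The groups overlapped widely, with control replicate 4 lowest and stretch replicate 4 highest. Scaled by TMM, the controls had a coefficient of variation of 23.5%, against at most 11.7% for any other gene of the set in control libraries. In the stretch libraries its coefficient of variation was 13.2%, below that of Wars2 (17.4%). Its log2 fold change was 0.22 ± 0.17 (edgeR adjusted p = 0.322). Because of Lars2, the summed mitochondrial level overlapped between groups (1090 to 1599 CPM without and 1352 to 1702 CPM with stretch). Leaving out Lars2, the sum was 265, 268 and 267 CPM without and 244, 260 and 258 CPM with stretch. The deposited values are per gene, so where along Lars2 its reads lie could not be seen. Whether its level is that of the whole transcript was not tested.

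**Figure D3:**
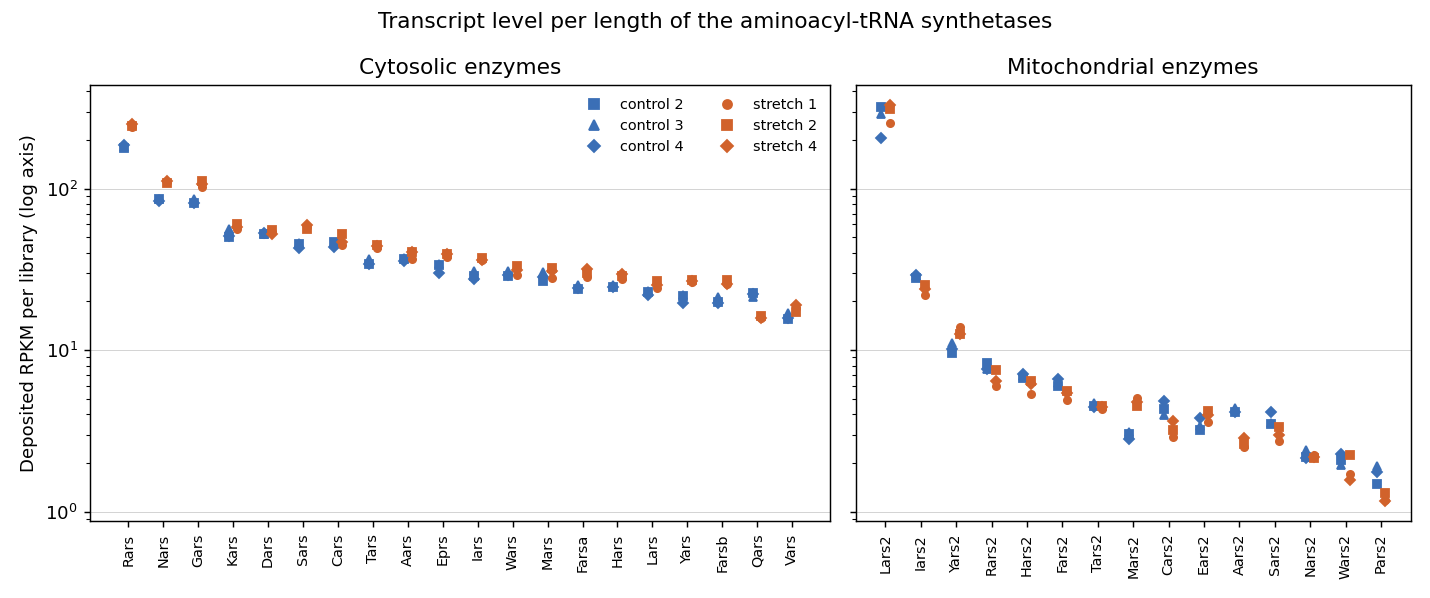
Points are deposited RPKM values of each library on a log axis, for cytosolic (left) and mitochondrial genes (right) ordered by mean level. Blue marks control and orange marks stretch libraries. Rars is the highest cytosolic gene at a mean of 213 RPKM, and Lars2, at 285 RPKM, lies far above the other mitochondrial genes.

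For each amino acid with an enzyme of both classes, the ratio of cytosolic to mitochondrial CPM was compared within libraries, where library scaling cancels. There were 16 pairs, with Eprs set against both Ears2 and Pars2, and Fars2 against both Farsa and Farsb, so that pairs share genes. The log2 ratio was higher after stretch in 14 pairs and lower in 1, and the libraries of the groups did not overlap in 11 of the 14 and in that 1. The exact two-sided permutation p was 0.1 in each of these 12 pairs, the smallest that 3 libraries against 3 can give (Benjamini-Hochberg adjusted p = 0.133 over the 16), so no pair could pass 0.05. Among all single genes tested, the groups were apart with stretch higher in 26.7% and with stretch lower in 29.2%. The share over ratios of other gene pairs was not computed, so how particular these counts are is not known.

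The alanine pair shifted most. The log2 ratio of Aars to Aars2 was 3.69, 3.63 and 3.64 without and 4.41, 4.49 and 4.36 with stretch, a shift of 0.77. Both genes contributed, since Aars was called higher and Aars2 lower. Shifts of 0.75 for Eprs to Pars2, 0.67 for Rars to Rars2 and for Sars to Sars2, and 0.60 for Iars to Iars2 followed. Methionine went the other way: the log2 ratio of Mars to Mars2 was 3.18, 3.34 and 3.38 without and 2.52, 2.89 and 2.73 with stretch, a shift of -0.59. For tyrosine (0.00), leucine (0.01), glutamate (0.07) and tryptophan (0.28) the groups overlapped. The limit given for the Lars2 level also holds for the leucine ratio. In the tyrosine pair both genes rose by about the same amount (0.42 for Yars and 0.43 for Yars2).

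**Figure D4:**
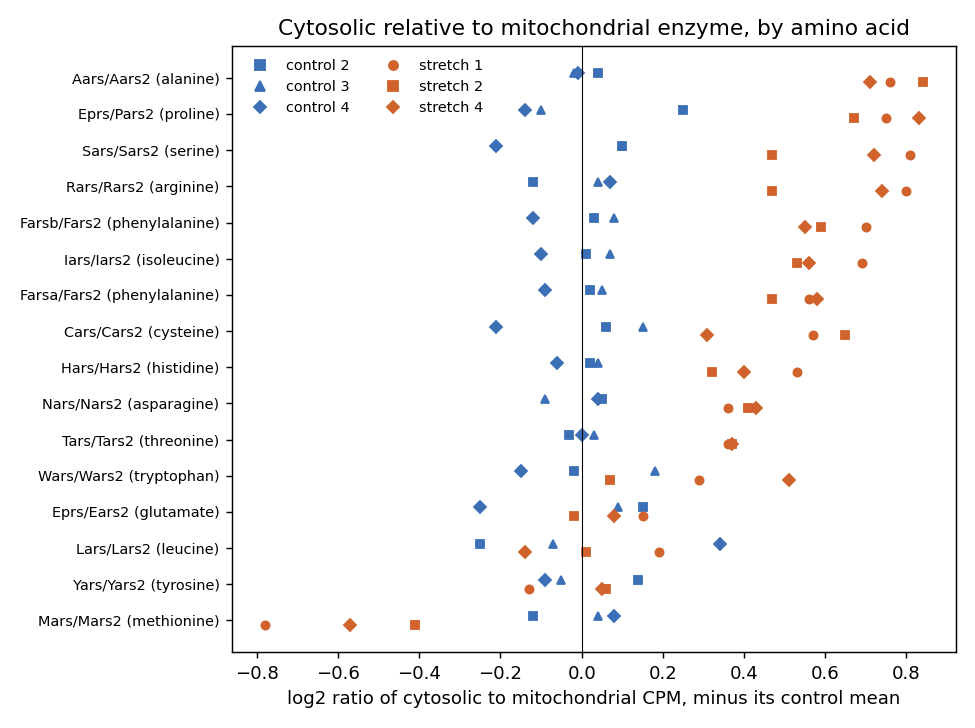
Points give, for each library, the log2 ratio of cytosolic to mitochondrial CPM minus the mean of the 3 control libraries, for 16 enzyme pairs. Blue marks control and orange marks stretch libraries. Stretch libraries lie to the right of all controls in 11 pairs, from threonine (0.37) to alanine (0.77), and to the left only for methionine (-0.59).

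The 8 enzymes of the multisynthetase complex held both ends of the cytosolic order, since Rars had the largest increase and Qars the only decrease. Of the 8, 7 rose and 1 fell, with a median log2 fold change of 0.24, where 21.4% of all genes tested were called higher and 22.6% lower. In the fits that left out 1 library, 5 or 6 of the 8 were called higher. Of the 12 enzymes outside the complex 11 rose and 0 fell, with a median of 0.40. The difference between these medians was not tested. With library sizes alone as scaling, 4 of the 8 complex enzymes were called higher. Of the 3 scaffold genes of the complex 2 rose. Eef1e1, a small scaffold protein, rose from 19.7 ± 1.15 CPM to 39.6 ± 3.70 CPM with stretch (means with SD, n = 3 libraries each), a log2 fold change of 1.01 ± 0.08, and Aimp2 rose by 0.47 ± 0.06. Aimp1 did not pass (0.08, edgeR adjusted p = 0.178).

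Other genes of translation were compared through lists chosen by function. Of all genes tested, 21.4% were called higher and 22.6% lower. Among further mitochondrial charging genes, Vars2, the mitochondrial valine enzyme, fell (log2 fold change -0.33 ± 0.07). The amidotransferase genes Qrsl1, Gatc and Gatb (listed as Pet112l), which complete glutaminyl-tRNA in mitochondria, had log2 fold changes of 0.01, 0.03 and -0.05 and did not pass. Of 9 mitochondrial translation factors 2 rose, a share close to that of all genes, and 1 fell, a share not above it. Gfm1 and Tufm, both elongation factors, were at 0.18 ± 0.04 and 0.17 ± 0.06 and the release factor gene Mtrf1 at -0.44 ± 0.14. Without control replicate 4, stretch replicate 1 or stretch replicate 4, 1 was called higher, without stretch replicate 2 it was 3, and without control replicate 2, control replicate 3 or stretch replicate 1, 0 were called lower. With library sizes alone 0 were higher and 3 lower. Of 8 cytosolic elongation and termination factors 5 rose and 0 fell, led by Etf1, the stop codon recognition factor (0.72 ± 0.05), its partner Gspt1 (0.43 ± 0.05) and Eif5a (0.43 ± 0.05). Only 3 of the 8 were called higher without control replicate 2, control replicate 4, stretch replicate 1 or stretch replicate 4, and 3 were higher and 1 lower with library sizes alone. Among other cytosolic charging and editing genes, Trnt1, which adds the CCA end of transfer RNAs, rose (0.26 ± 0.05), as did Sepsecs (0.35 ± 0.11), an enzyme of selenocysteine tRNA synthesis, and Dtd1, a deacylase that removes D-amino acids from transfer RNA, fell (-0.29 ± 0.09). The calls of Tufm, Mtrf1, Sepsecs and Dtd1 were lost in some fits that left out 1 library.

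Most genes of the ATF4 and amino acid response were higher in the same libraries. Of 18, 15 rose and 0 fell, with a median log2 fold change of 0.48. Over all genes tested, 21.4% were called higher and the median was -0.01. Trib3 (0.04), Sesn2 (0.05) and Slc7a11 (-0.08) did not pass. Mthfd2, of mitochondrial folate metabolism, rose by 0.98 ± 0.06, Slc7a5, a transporter of large neutral amino acids, by 1.07 ± 0.08, and Atf4 itself by 0.57 ± 0.06, from 365 ± 9.08 CPM to 543 ± 37.6 CPM with stretch (means with SD, n = 3 libraries each). Without stretch replicate 1 the count called higher was also 15. Without control replicate 2 it was 13, and without control replicate 4 it was 14, with 1 gene called lower. The part of ATF4 in the synthetase changes was not tested.

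**Figure D5:**
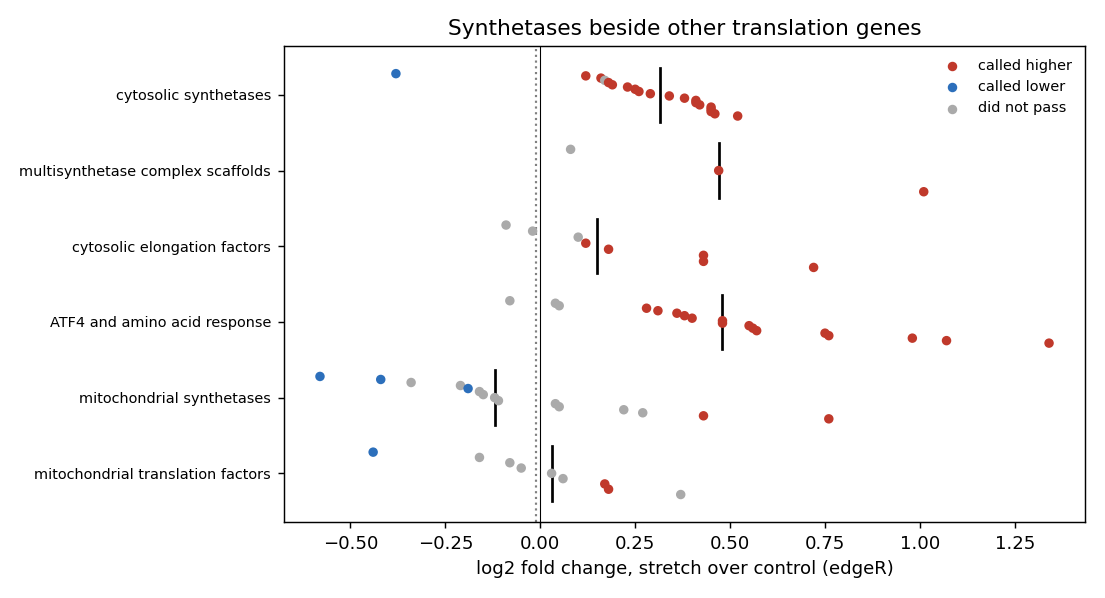
Points are log2 fold changes of stretch over control (edgeR) for the genes of 6 lists, red for called higher, blue for called lower and grey for genes that did not pass. Black bars are list medians and the dotted line is the median of all genes tested. The bar of the cytosolic synthetases is at 0.32 and that of the mitochondrial synthetases at -0.12, beside 0.48 for the ATF4 and amino acid response.

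Some of these genes share exon sequence with a neighbour in GENCODE M21, and no source used here gives the strand setting of the counting, so that reads there cannot be told apart. This applied to 12 of the 35 genes, and for 9 of them a neighbour is in the count table under its GENCODE symbol. Neighbours counted under an older symbol would be missed. Cars2 shares 422 bases with Naxd on the other strand, a symbol not found in the count table. Iars2 shares 2034 exon bases with Rab3gap2 on the other strand, which rose by 0.55 on the log2 scale while Iars2 fell. Aars shares 1326 bases with Exosc6 on the same strand, which rose by 0.38. Hars and Hars2 lie head to head and share 195 bases, with log2 fold changes of 0.29 and -0.12, and Mars shares 68 bases with Ddit3, the gene of the stress factor CHOP, which rose by 0.40. In the authors' deposited table the false discovery rate was under 0.05 for 16 cytosolic genes as higher and 1 as lower, and 2 mitochondrial genes as higher and 2 as lower. Of the 23336 genes of that table, 2864 (12.3%) passed as higher and 2848 (12.2%) as lower.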

How the data were processed

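For each of the 6 libraries the authors deposited raw counts and RPKM values per gene, and a table of their comparison holds log2 fold changes, a score (the likelihood ratio) and a p-value with its false discovery rate, per the file headers. GRCm38 (mm10), edgeR, featureCounts and TopHat2 2.1.0 are listed in the submitters' processing notes. The sources used here do not give the role of each tool, the annotation, the filters or the strand setting.

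Groups came from the sample titles. From the deposited counts, stretch was compared with control in edgeR 4.0.16 under R 4.3.3 (TMM scaling, filterByExpr defaults, quasi-likelihood F test on group), with Benjamini-Hochberg adjustment over the 14222 of 23337 genes tested. Genes were called at an adjusted p under 0.05. The SE was the absolute log2 fold change divided by the square root of F. Counts of the 35 genes were between 226 and 89690 per library, and values of the genes with the lowest counts carry the largest counting error. The steps were run on simulated counts with the same dispersion for all genes and far fewer changed genes than were called here. That setting does not cover the share of genes called in these data.

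The members and gene lists were chosen with earlier results of these data known. Values in every library are given for called genes with an absolute log2 fold change of at least 0.5, the ends of the order in each class, the 3 called mitochondrial genes with the smallest p in each direction and the 3 genes of highest RPKM. Values given for Iars, Dars, Mars, Farsa, Farsb and Cars2 were chosen after they were seen. In the other lists, some genes of which are not reported here, up to 3 called genes per direction with the smallest p are named, or 2 genes where none was called. Aimp1, Qrsl1, Gatc, Gatb, Trib3, Sesn2 and Slc7a11 were added after their values were seen. Alternatives to the test were DESeq2 1.42.0, limma-voom (limma 3.58.1), robust dispersion, glmTreat against 1.2-fold and a block on the replicate number. Scaling was varied to upper-quartile or RLE factors or to library sizes alone, and the filter to none or to 1 CPM in 3 libraries, and every library was left out once. Leaving out libraries in the ratios of enzyme pairs was added after the data were seen.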

Additional observations from a re-analysis of the deposited data

How the results depend on the processing

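Between 13 and 19 cytosolic genes were called higher under the other scalings, filters and tests of any change, and 14 to 18 when 1 library was left out, while Qars was called lower under each alternative run. Against a minimum change of 1.2-fold, 9 cytosolic genes were called higher, 1 mitochondrial gene lower and 2537 genes in all, since that test asks for more than any change. With library sizes alone the median of all genes moved from -0.01 to -0.11 on the log2 scale. The medians then were 0.22 for cytosolic and -0.21 for mitochondrial genes, 13 cytosolic genes were called higher and 1 lower, 2 mitochondrial genes higher and 5 lower, and 14.7% of all genes were called higher and 30.2% lower. Tars2 and Nars2 then changed sign (-0.05 and -0.04). Leaving out each library gave 1 to 3 mitochondrial genes called lower and a cytosolic median between 0.27 and 0.34, lowest without control replicate 4. The cause of these differences was not tested. The replicate number as a block gave 18 cytosolic genes higher, 3 mitochondrial genes higher and 1 lower, and 5568 genes in all. Replicate numbers 2 and 4 occur in both groups, and the deviations of same-numbered libraries correlated at 0.212 and 0.114. Those of differently numbered libraries correlated between -0.204 and 0.18. The labels do not tie a number to an isolation and only 2 pairs exist, so same-numbered libraries were not treated as pairs. Of the pair ratios whose groups overlapped, leaving out 1 library moved the shift across 0 for tyrosine (-0.05 to 0.07), leucine (-0.11 to 0.18) and Eprs to Ears2 (-0.05 to 0.15).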
